A study of Mus musculus with 14 samples.

Results

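The genes described here encode the major histocompatibility complex (MHC) class II antigen presentation machinery: the chains H2-Eb1, H2-Ab1 and H2-Aa, the invariant chain Cd74, the coactivator Ciita, the peptide loading chains H2-DMa and H2-DMb1, and their inhibitor chains H2-Oa and H2-Ob. All probe sets named for these 9 genes, of 18193 genes with a probe set of 1 symbol, were taken separately in every group. H2-Eb1 was selected on its measured signal in thymus, which was lower in Cre+ mice while that of H2-Ab1 was not, so every thymus difference between the genotypes below is a description with no test. Of the genes, 8 had 16 probe sets of their own, and 12 of these, at least 1 for each gene, passed a filter on low signal (highest tissue mean of at least 6.87 on the log2 scale). H2-DMb1 was represented only by 2 probe sets that it shares with H2-DMb2, 1 of which passed. Just inside the filter stood H2-Ob with 7.03, and just outside it a dim H2-Aa probe set (1443783_x_at) with 6.62.

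RNA from mice was hybridised to Affymetrix mouse genome expression arrays, 1 array per sample and 14 in all. There were 3 Cre+ and 3 control samples of liver sinusoidal endothelial cells (LSEC, the fenestrated lining cells of the liver capillaries), 2 Cre+ and 2 control samples of lung endothelial cells (lung EC), and 2 Cre+ and 2 control samples of thymus. Cre+ mice were MxCre+ and controls MxCre-, and both were Fk1 L/L, Fk2 L/L and also Afx L/L, on the FVBn background. All 6 groups thus carried floxed alleles of the forkhead transcription factor genes Foxo1, Foxo3 and Foxo4, for which Fk1, Fk2 and Afx are older names, and the groups of a tissue differed in the MxCre transgene. MxCre is driven by an interferon-inducible promoter and is active in many cell types. The labels used here give no age, no inducing treatment and no cell isolation step, and do not say that replicates are separate animals, and p-values therefore measure only how these samples spread, which may be technical. The small number of arrays limits the precision.

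Class II molecules are heterodimers of an alpha and a beta chain that display peptides from endocytosed proteins to CD4+ T cells. In the mouse the A molecule is built from H2-Aa and H2-Ab1 and the E molecule from H2-Ea and H2-Eb1. In the thymus, class II on epithelial and dendritic cells selects CD4+ thymocytes, and LSEC are scavenger endothelial cells that can carry class II. FVB mice are of the q haplotype, one of those whose cells do not display the E molecule, so H2-Eb1 RNA is read here as RNA alone. The classical chain, Cd74, H2-DM and H2-O genes share an upstream element, the S-X-Y module, on which RFX, CREB and NF-Y proteins assemble and recruit the product of Ciita.

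Upstream sequences of the chain genes are shown because H2-Eb1 and H2-Aa are direct neighbours whose signals stood on opposite sides of control in Cre+ thymus. The sequences are those of RefSeq (build GRCm38.p6, the C57BL/6J reference, and not that of the FVBn mice used), run from 250 bases before to 50 bases after the annotated start, and are written 5′ to 3′ on the strand of the gene. Capitals mark GCAAC, the core of the X1 box, followed by ATTGG, the inverted CCAAT of the Y box. The window of H2-Eb1 lies at chr17:34305617-34305916 on the plus strand, that of H2-Aa at chr17:34287774-34288073 on the minus strand and that of H2-Ob at chr17:34238655-34238954 on the plus strand.

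H2-Eb1: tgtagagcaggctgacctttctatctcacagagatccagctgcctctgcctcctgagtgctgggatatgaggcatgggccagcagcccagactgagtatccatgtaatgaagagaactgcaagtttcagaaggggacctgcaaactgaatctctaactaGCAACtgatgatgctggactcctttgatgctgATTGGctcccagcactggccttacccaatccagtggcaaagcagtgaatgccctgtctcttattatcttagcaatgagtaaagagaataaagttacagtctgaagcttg

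H2-Aa: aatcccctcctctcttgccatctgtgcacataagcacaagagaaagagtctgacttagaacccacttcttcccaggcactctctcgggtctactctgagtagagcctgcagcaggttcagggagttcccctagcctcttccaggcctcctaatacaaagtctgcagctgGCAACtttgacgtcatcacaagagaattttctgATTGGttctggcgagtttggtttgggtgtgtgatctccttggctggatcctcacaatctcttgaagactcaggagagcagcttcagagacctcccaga

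H2-Ob: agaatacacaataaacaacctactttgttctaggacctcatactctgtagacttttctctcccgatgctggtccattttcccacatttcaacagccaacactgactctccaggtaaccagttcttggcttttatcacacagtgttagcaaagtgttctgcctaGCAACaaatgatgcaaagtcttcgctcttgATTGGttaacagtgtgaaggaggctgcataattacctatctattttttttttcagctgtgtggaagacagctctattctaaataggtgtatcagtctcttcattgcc

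The first base of GCAAC stood 91 bases before the start in H2-Eb1, 81 in H2-Aa and 87 in H2-Ob, and ATTGG began 32, 33 and 30 bases further on. H2-Oa, whose window lies at chr17:34092129-34092428 on the plus strand, held the same pair 33 bases apart. Neither of the 2 windows of H2-DMa (chr17:34122582-34122881 and chr17:34125268-34125567, plus strand) held the pair. Both lie inside the gene, which begins at 34119693 in the gene table, and no window at that position was searched. The window of H2-DMb1 did not hold the pair either and held ATTGG alone of these letters. The table gave 7 windows for 6 of the 9 genes, and none for H2-Ab1, Cd74 and Ciita. On either strand, GCAAC was present in 35.2% of all 32851 windows of this length, ATTGG in 37.4%, and GCAAC followed by ATTGG on the same strand with 15 to 45 bases between their first bases in 1.43%. A match is a description of letters. The pair was present in both H2-Eb1 and H2-Aa, and the bases of the FVBn mice were not examined here.

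In control mice H2-Eb1, H2-Ab1, H2-Aa and Cd74 had their highest signal in thymus. H2-Eb1 measured 11.14 and 10.85 in control thymus, against 5.82, 6.20 and 6.25 in control LSEC and 6.38 and 5.54 in control lung EC (all on the log2 scale after quantile normalization, as are all values below). Cd74, the invariant chain that guides class II dimers to the peptide loading compartment, measured 12.90 and 12.84 in control thymus, against 8.13, 7.68 and 8.85 in control LSEC and 9.31 and 9.22 in control lung EC. No thymus array overlapped any endothelial array in either gene. H2-Eb1, H2-Ob and the H2-Ab1 probe set 1425477_x_at passed the filter through thymus alone, so that thymus is their highest tissue was fixed by the filter. Of the other 9 passing class II probe sets, 8 had all 4 thymus arrays above all 10 endothelial arrays over both genotypes. The same held for 19.0% of the 24381 probe sets that reached the limit in an endothelial tissue. The exception was Ciita (1421210_at), the coactivator that switches class II genes on, with 7.72 and 7.82 in control thymus, against 6.96, 7.53 and 7.15 in control LSEC and 7.18 and 7.20 in control lung EC. Its highest Cre+ LSEC array, at 7.73, stood just above the lower control thymus array. In a piece of tissue or a cell preparation, fewer cells of a type and less RNA per cell cannot be told apart.

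The mean of control thymus exceeded the higher of the 2 control endothelial means by 4.90 for H2-Eb1, by 3.64 to 4.51 for the 3 H2-Ab1 probe sets, by 3.82 to 4.03 for the 3 passing H2-Aa probe sets and by 3.61 for Cd74. The gap was smaller for the accessory genes H2-DMa (1.48) and H2-Oa (1.09) and for Ciita (0.56), and 4.20 for H2-Ob, the beta chain of the inhibitor H2-O. Probe sets differ in their response, so these gaps are not compared as amounts of RNA. In the order of the 6 group means of H2-Eb1, control thymus and then Cre+ thymus led without overlap, and the 4 endothelial groups each overlapped their neighbour in the order.

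**Figure D1:**
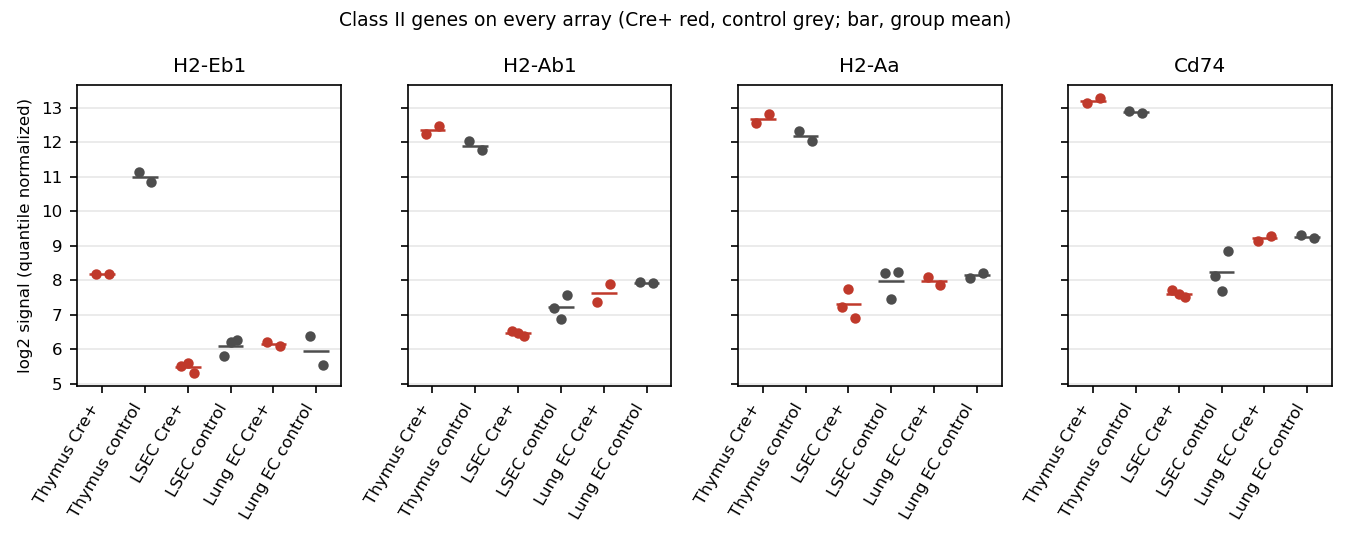
Log2 signal of H2-Eb1, H2-Ab1 (1450648_s_at), H2-Aa (1438858_x_at) and Cd74 on each of the 14 arrays (points), with the mean of each group (bar), Cre+ in red and control in grey. H2-Eb1 lies at 8.19 and 8.18 in Cre+ thymus and at 11.14 and 10.85 in control thymus, while the other genes lie slightly above their controls there.

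In thymus, which held the contrast that chose H2-Eb1, this gene alone among the passing class II probe sets of the list stood below control. Of the class II chain genes outside the list, H2-Eb2 (-0.37) and H2-DMb2 (1443687_x_at, -0.16) also stood below control, by less. H2-Ea stood above it. H2-Eb1, the beta chain of the E molecule, measured 8.19 and 8.18 in Cre+ thymus, against 11.14 and 10.85 in control thymus. The groups lay far apart, with a difference of the means of -2.81, or 7.01-fold. H2-Eb1 has only 1 probe set, so the value rests on that probe set. Whether its probes match the H2-Eb1 allele of each group was not examined here. H2-Ab1, the beta chain of the A molecule, measured 12.22 and 12.46 in Cre+ thymus, against 12.05 and 11.76 in control thymus on its brightest probe set (1450648_s_at), a difference of 0.44. Its other probe sets stood 0.64 (1451721_a_at) and 1.12 (1425477_x_at) above control, so the 3 pointed the same way and differed in size.

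H2-Aa, the alpha chain paired with H2-Ab1, measured 12.56 and 12.80 in Cre+ thymus, against 12.31 and 12.03 in control thymus (1438858_x_at, difference 0.51). Its probe sets 1435290_x_at and 1452431_s_at differed by 0.32 and 0.86. The dim H2-Aa probe set that did not pass the filter (1443783_x_at) measured 6.84 and 5.67 in Cre+ thymus, against 7.09 and 6.89 in control thymus, and thus went the other way. Cd74 measured 13.12 and 13.27 in Cre+ thymus, against 12.90 and 12.84 in control thymus, a difference of 0.32.

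Of the accessory genes, H2-Ob measured 7.50 and 7.23 in Cre+ thymus, against 6.85 and 6.56 in control thymus (difference 0.66). H2-Oa, the alpha chain of the inhibitor H2-O, stood 0.39 above control, and H2-DMa, the alpha chain of the H2-DM peptide editor, 0.20 above it. The passing probe set shared by H2-DMb1, the beta chain of H2-DM, and H2-DMb2 (1449580_s_at) measured 9.10 and 9.62 in Cre+ thymus, against 9.02 and 8.86 in control thymus. Ciita measured 7.91 and 7.90 in Cre+ thymus, against 7.72 and 7.82 in control thymus, a difference of 0.13. On these passing probe sets the Cre+ arrays stood above the control arrays, in some cases by little. Dim probe sets that did not pass went both ways: Ciita differed by 0.53 (1421211_a_at) and -0.22 (1447075_at), H2-DMa by 0.22 (1459872_x_at), the second probe set of H2-DMb1 or H2-DMb2 by -0.19 (1418638_at, groups apart), and a probe set of H2-Ob or Gm20506 by -1.18 (1422201_at).

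Of the 12 passing class II probe sets, 11 had both Cre+ thymus arrays above both control arrays, and H2-Eb1 had both below. Over all probe sets tested, 21.1% had their groups apart with Cre+ higher and 21.3% with Cre+ lower. Several of the class II probe sets measure the same gene, and all come from the same thymus arrays, so they are not independent. The median difference was 0.41 over the 12 probe sets and 0.01 over all probe sets tested. H2-Eb1 ranked 4 from the lowest of the 27022 differences, and 9 probe sets, or 0.0333%, stood more than 2 below control. These ranks restate the choice of H2-Eb1 and are no test. The sign of each of the 12 thymus differences was the same with median centring, on the values as deposited and without any 1 array, and that of H2-Eb1 ranged from -2.95 to -2.67 when 1 array was left out.

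**Figure D2:**
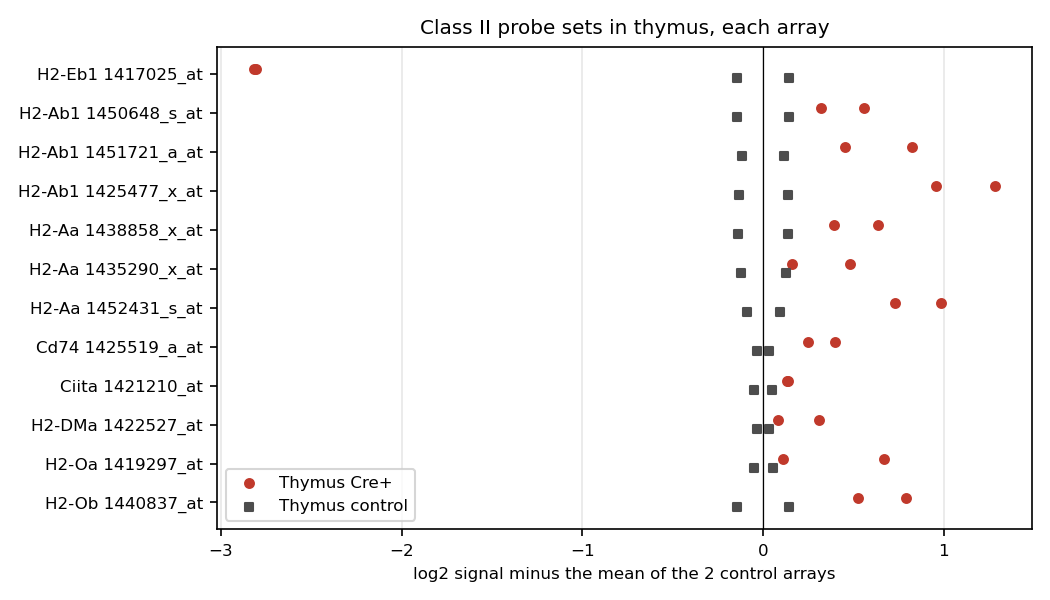
Log2 signal of each thymus array minus the mean of the 2 control thymus arrays, for the 12 class II probe sets that passed the filter (Cre+ as red circles, control as grey squares). H2-Eb1 stands at about -2.81 in Cre+ thymus, and the other 11 stand to the right of both control arrays.

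Within each array, H2-Eb1 was compared with its class II partners, which removes any factor that scales a whole array. H2-Eb1 minus H2-Ab1 (1450648_s_at) was -4.04 and -4.28 in Cre+ thymus, against -0.91 and -0.91 in control thymus. The difference of the means was -3.25 against H2-Ab1, -3.32 against H2-Aa and -3.13 against Cd74. In LSEC the same within-array contrasts moved by 0.14, 0.06 and 0.01, and in lung EC by 0.47, 0.34 and 0.24, with the Cre+ and control arrays overlapping in all 6 cases. On the endothelial arrays the signal of H2-Eb1 lay below the filter limit in all 4 groups. The thymus values restate the choice of the gene, and the tissues were not tested against each other.

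The genes around H2-Eb1 were examined next. Between H2-Oa and Notch4 the gene table lists 27 genes, 17 with a named probe set and 15 with one that passed the filter. The 9 of these that are not class II genes of the list stood between -0.37 and 0.87 of control in Cre+ thymus, with a median of 0.02. Directly beside H2-Eb1, H2-Aa stood 0.51 above control on one side. On the other side H2-Eb2, a class II beta chain gene, measured 7.46 and 7.66 in Cre+ thymus, against 7.99 and 7.88 in control thymus, a difference of -0.37.

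H2-Ea, the alpha chain gene of the E molecule, lies beyond H2-Eb2 and is annotated as a transcribed pseudogene in the reference. It measured 8.60 and 9.80 in Cre+ thymus, against 8.44 and 8.23 in control thymus (1422891_at, difference 0.87). A second probe set of H2-Ea (1422892_s_at) measured 7.97 and 8.07 in Cre+ thymus, against 6.80 and 7.08 in control thymus (difference 1.08). A dim probe set of H2-Ea that did not pass (1426202_at) differed by -0.21, with overlapping groups. On its passing probe sets H2-Ea thus stood on the other side of control from H2-Eb1. These probe sets did not share the high thymus signal of H2-Eb1. In control LSEC and control thymus 1422891_at averaged 8.51 and 8.33, and 1422892_s_at 6.78 and 6.94. Whether they measure RNA of H2-Ea alone was not tested. The Tap1, Psmb8 and Tap2 genes of class I peptide supply, which lie in the same stretch, differed by 0.02, 0.02 and -0.00. Psmb9, a further gene of class I peptide supply there, differed by 0.20, with both Cre+ arrays above both control arrays. Of 14 class I presentation genes tested, 12 stood above control in Cre+ thymus, with a median of 0.12. Over all probe sets tested, the median was 0.01 and 48.9% stood below control.

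**Figure D3:**
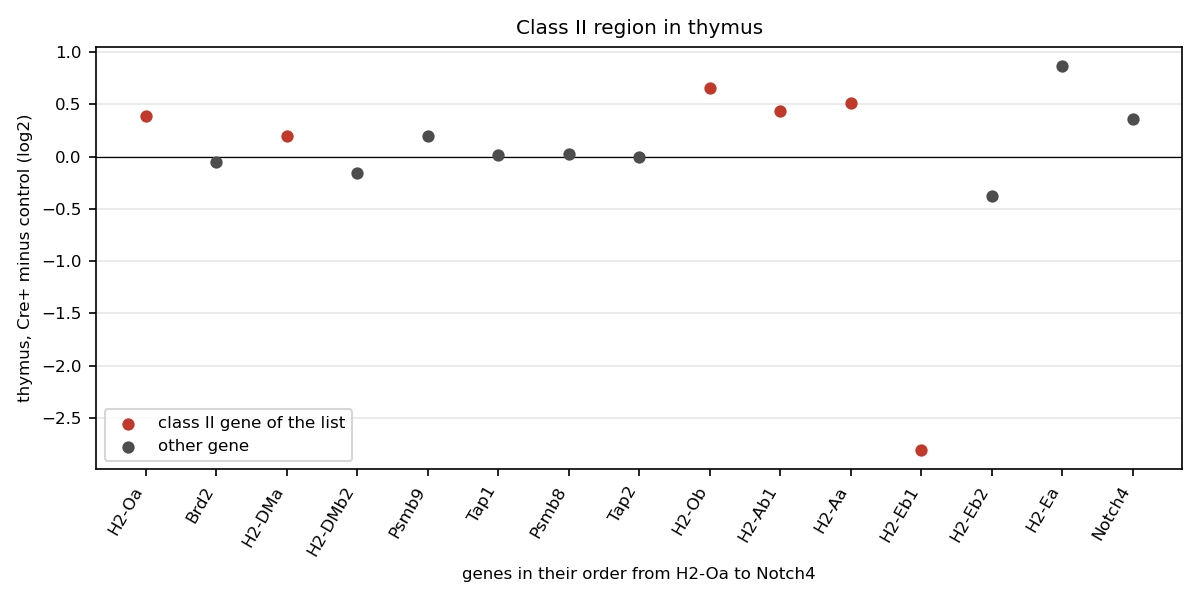
Difference between Cre+ and control thymus (log2, means of 2 arrays each) for the 15 genes between H2-Oa and Notch4 with a passing probe set, in their order along the chromosome but not to scale, with the class II genes of the list in red. H2-Eb1 stands at -2.81 between H2-Aa at 0.51 and H2-Eb2 at -0.37.

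Marker genes of the thymic cells that carry class II were compared in the same arrays. Over all probe sets tested, 48.9% stood below control in Cre+ thymus. Of 9 dendritic cell markers tested, 9 stood above control there, by 0.01 to 2.01. Siglech, a marker that did not pass the filter, averaged 6.61 in Cre+ thymus and 6.75 in control thymus. The mean of the 12 measured was 7.52 and 7.62 in Cre+ thymus, against 7.33 and 7.15 in control thymus. Of 9 macrophage markers tested, 9 stood above control, with list means of 7.48 and 7.48 in Cre+ thymus, against 7.10 and 7.26 in control thymus. Of 13 thymic epithelial markers, 12 stood above control, with list means of 9.98 and 10.07 in Cre+ thymus, against 9.73 and 9.72 in control thymus. B cell markers stood on both sides, 3 of 6 above control. No marker of these lists had a deposited value of 0 on any thymus array, but several had group means under the filter limit. In each thymus group these were 5 of the 12 dendritic cell and 5 of the 11 macrophage markers. Of the 11 B cell markers they were 4 in Cre+ and 6 in control thymus. The part of these cells in the higher signal of H2-Ab1, H2-Aa, Cd74 and the accessory genes was not tested. The thymocyte markers had list means of 11.48 and 11.31 in Cre+ thymus, against 11.46 and 11.43 in control thymus.

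The comparison of genotypes in LSEC did not use the thymus contrast that chose H2-Eb1, but it shares the filter and the estimate of spread with the thymus arrays. One of the 12 class II probe sets passed the test, the brightest one of H2-Ab1 (1450648_s_at), which fell in Cre+ LSEC. It measured 6.52, 6.46 and 6.38 in Cre+ LSEC, against 7.18, 6.87 and 7.57 in control LSEC. All Cre+ arrays lay below all control arrays, and the means of 6.45 ± 0.07 and 7.21 ± 0.35 (SD, n = 3 each) differed by -0.75 (95% interval -1.15 to -0.36, limma adjusted p = 0.0338), or 1.69-fold. Of all probe sets tested, 5.23% were called in this comparison, 2.61% lower and 2.62% higher, so 1 of 12 is near the background. The call was lost without any 1 of the Cre+ arrays (limma adjusted p = 0.0692, 0.076 and 0.103), without control replicate 1 (0.0779) or 3 (0.0918), and without either lung EC control array (0.0545), which share the estimate of spread. It was also lost with no filter (0.0895), with array weights (0.0538), with only the arrays compared (0.102), with a replicate block (0.113) and with the block crossed for lung (0.095).

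The other chain genes had similar differences that did not pass. H2-Eb1 measured 5.51, 5.61 and 5.32 in Cre+ LSEC, against 5.82, 6.20 and 6.25 in control LSEC (difference -0.61, limma adjusted p = 0.103). Its groups did not overlap, but all 6 values lay under the filter limit. The remaining H2-Ab1 probe sets differed by -0.54 and -0.62, and the 3 H2-Aa probe sets by -0.67, -0.56 and -0.60, with limma adjusted p between 0.0997 and 0.307. Cd74 measured 7.70, 7.59 and 7.51 in Cre+ LSEC, against 8.13, 7.68 and 8.85 in control LSEC (difference -0.62, limma adjusted p = 0.147). The lowest control array of Cd74 lay below the highest Cre+ array, and the control arrays spread over more than 1 on the log2 scale. Without control replicate 2, limma called 5 of the 12 lower: Cd74, H2-Ab1 (1450648_s_at) and the 3 of H2-Aa, for each of which that array was the lowest control.

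The accessory genes had smaller differences or differences above 0, and chain and accessory genes were not tested against each other. Ciita measured 7.73, 7.45 and 7.30 in Cre+ LSEC, against 6.96, 7.53 and 7.15 in control LSEC (difference 0.28, 95% interval -0.10 to 0.65). H2-DMa differed by -0.23, H2-Oa by -0.16 and the probe set shared by H2-DMb1 and H2-DMb2 by -0.00, all with overlapping groups. H2-Ob measured between 1.34 and 4.11 in the 6 arrays, far below the filter limit. In all, 10 of the 12 probe sets stood below control, against 48.0% of all probe sets tested, with a median of -0.58, against 0.01 over all. In 3 the groups were apart with Cre+ lower (H2-Eb1, H2-Ab1 1450648_s_at and H2-Aa 1452431_s_at), against 10.5% of all. At an unadjusted p under 0.05 there were 7 of the 12, all lower, against 19.1% of all probe sets in either direction and 8.58% lower. Several of these probe sets measure 1 gene, and the genes vary together from array to array, so they are not independent.

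**Figure D4:**
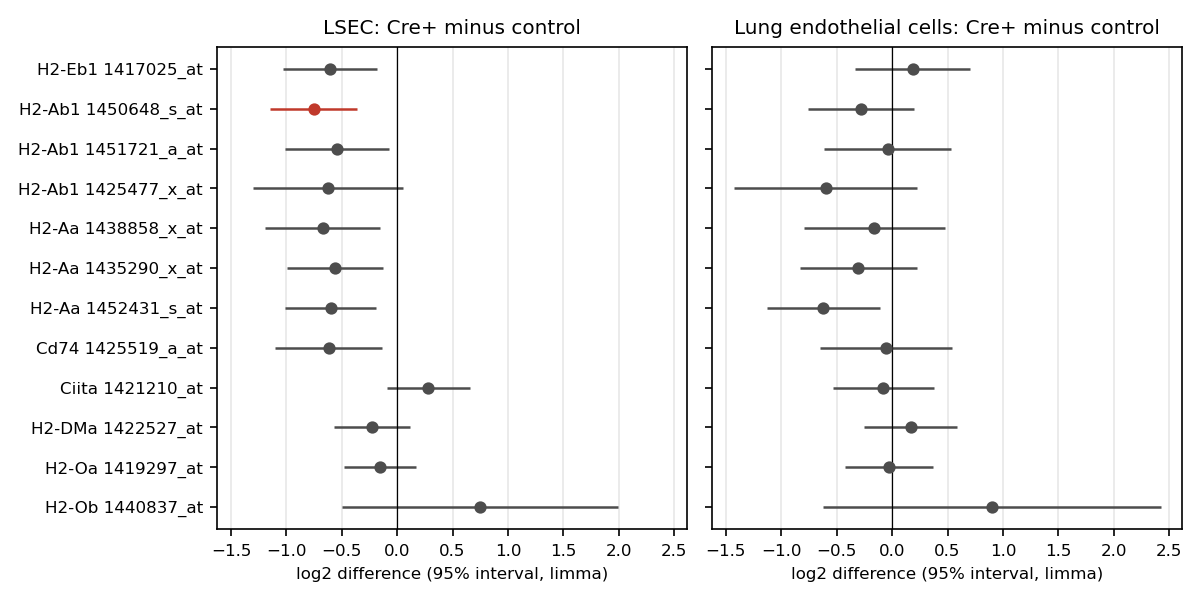
Difference between Cre+ and control (log2) of the 12 class II probe sets in LSEC (left) and lung EC (right), with 95% intervals from limma. The H2-Ab1 probe set 1450648_s_at, in red at -0.75 in LSEC, is the one called, and no probe set is called in lung EC.

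Markers of other cells varied between LSEC arrays. The 11 macrophage markers had list means of 9.25, 8.27 and 8.14 in Cre+ LSEC, against 8.44, 8.19 and 9.36 in control LSEC. Control replicate 3, the highest of these, also had the highest signal of the control LSEC arrays for Cd74 and for every passing chain probe set but H2-Ab1 1425477_x_at. Of the 9 macrophage markers tested 7 stood below control, and limma called none of them. The dendritic cell markers had list means of 6.86, 6.67 and 6.65 in Cre+ LSEC, against 6.73, 6.80 and 6.99 in control LSEC, with 6 of 9 tested below control and none called. No macrophage or dendritic cell marker had a deposited value of 0 on any LSEC array. Group means under the filter limit were those of 6 of the 12 dendritic cell markers in Cre+ LSEC and 7 in control LSEC. Of the 11 macrophage markers they were 3 in Cre+ LSEC and 2 in control LSEC. The H2-Ab1 (1450648_s_at) difference was -0.57 without control replicate 3. The part of these cells in the class II signal was not tested. LSEC markers themselves were lower in Cre+ LSEC, 6 of 10 by limma's adjusted p, with list means of 9.37, 8.91 and 9.60 in Cre+ LSEC, against 10.55, 11.06 and 10.59 in control LSEC.

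Other genes of class II presentation were compared from lists, beside 5.23% of all probe sets called in LSEC, 2.61% lower, so a single call in a list of about 10 genes is not read as a result about the list. Of 10 genes of promoter factors, among them the RFX and NF-Y subunits and CREB, limma called 0 in LSEC (median -0.05). Those with the smallest p were the coactivator gene Crebbp (-0.31, adjusted p = 0.164) and Nfyb (-0.21, adjusted p = 0.384). Of 12 genes of peptide loading and class II turnover, 1 fell and none rose: the protease gene Ctsl measured 12.10 in Cre+ LSEC and 12.87 in control LSEC on average, a difference of -0.77 (limma adjusted p = 0.00509). Of 9 interferon gamma signalling genes, limma called 1 lower and none higher: Jak1, a kinase of the receptor, differed by -0.52 (limma adjusted p = 0.0122). In all, 8 of these 9 stood below control (median -0.22), against 48.0% of all probe sets tested. Of 14 class I presentation genes limma called 0, and 12 stood below control (median -0.20), with the smallest p for the heavy chain gene H2-K1 (-0.43, adjusted p = 0.0587) and Erap1, a peptide-trimming protease gene (-0.34, adjusted p = 0.0751). Most class I genes tested thus stood below control in Cre+ LSEC, and none passed.

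In lung EC, none of the 12 class II probe sets was called between genotypes. Limma called 9 of the 27022 probe sets there, or 0.0333%, so a count of 0 is the background. Cd74 measured 9.14 and 9.28 in Cre+ lung EC, against 9.31 and 9.22 in control lung EC, a difference of -0.05 (95% interval -0.65 to 0.54). H2-Ab1 (1450648_s_at) measured 7.38 and 7.90 in Cre+ lung EC, against 7.94 and 7.90 in control lung EC (difference -0.28, 95% interval -0.76 to 0.20). H2-Eb1 measured 6.21 and 6.08 in Cre+ lung EC, against 6.38 and 5.54 in control lung EC (difference 0.19). The groups overlapped for Cd74 and H2-Eb1, and for H2-Ab1 the higher Cre+ array was level with the lower control array.

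The H2-Aa probe set 1452431_s_at measured 7.16 and 7.21 in Cre+ lung EC, against 7.51 and 8.11 in control lung EC. Its difference of -0.62 had an unadjusted p of 0.0211 in limma, 1 of the 12 under 0.05 against 4.73% of all, and an adjusted p of 0.963. The other passing H2-Aa probe sets differed by -0.16 and -0.30. Of the accessory genes, Ciita differed by -0.08, H2-DMa by 0.17 and H2-Oa by -0.03, while H2-Ob measured 3.08 and 3.73 in Cre+ lung EC, against 3.23 and 1.79 in control lung EC, far below the filter limit. Over the 12, 9 stood below control (47.9% of all did), with 4 apart lower and 1 apart higher, against 18.8% and 20.5% of all. The lower bounds for Cd74 and H2-Ab1 lie beyond the differences of these genes in LSEC, so differences of that size lie within the intervals from 2 arrays a group.

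The genotype differences in LSEC and lung EC were compared directly. None of the 12 class II probe sets was called, against 0.326% of all probe sets. One of them, H2-Eb1, had an unadjusted p under 0.05, as did 9.97% of all probe sets: its LSEC difference minus its lung EC difference was -0.79 (95% interval -1.47 to -0.12, unadjusted p = 0.0245, limma adjusted p = 0.41). For H2-Ab1 (1450648_s_at) the same quantity was -0.47 (95% interval -1.09 to 0.15) and for Cd74 -0.57 (95% interval -1.33 to 0.20). A difference between the beds in the genotype effect on class II genes was thus not detected with these arrays, and the intervals reach past -1 on the log2 scale.

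Between control LSEC and control lung EC, limma called 4 of the 12 class II probe sets, all lower in LSEC. Of all probe sets 43.3% were called, 20.0% lower and 23.3% higher, so calls were no more frequent among the class II probe sets. Cd74 measured 8.13, 7.68 and 8.85 in control LSEC, against 9.31 and 9.22 in control lung EC, a difference of -1.04 (SE 0.25, limma adjusted p = 0.0057). H2-DMa measured 5.97, 5.84 and 6.19 in control LSEC, against 6.90 and 7.15 in control lung EC, a difference of -1.02 (SE 0.17, limma adjusted p = 0.000735). No control LSEC array of either gene reached the lung EC arrays.

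H2-Aa (1452431_s_at) differed by -1.02 (limma adjusted p = 0.00254) and H2-Ab1 (1450648_s_at) by -0.71 (limma adjusted p = 0.0134), a call that was lost without lung EC control replicate 1 (0.0725) or 2 (0.0631). The other H2-Aa probe sets differed by -0.17 and -0.28 and the other H2-Ab1 probe sets by -0.31 and -0.33, none of them called, so probe sets of 1 gene disagreed on the size. H2-Eb1 differed by 0.13 (95% interval -0.34 to 0.61) and Ciita by 0.03 (95% interval -0.39 to 0.45). H2-Ea (1422892_s_at) went the other way, 0.61 higher in control LSEC (limma adjusted p = 0.0373).

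Cells other than endothelium contributed RNA to the lung EC samples. Of 8 lung epithelial markers tested, 8 were lower in control LSEC by limma, and their list mean was 6.10 to 6.58 in control LSEC, against 9.76 and 9.77 in control lung EC. Sftpc, the surfactant gene of alveolar type 2 cells, differed by -5.49. Alveolar type 2 cells can carry class II, and the part of epithelial RNA in the lung EC class II signal was not tested. Macrophage markers differed between the beds in both directions, with a difference of 3.07 for Cd5l and -2.60 for Marco. Dendritic cell markers also went both ways, with -1.03 for Itgax and 1.99 for Cd207. The endothelial identity of the samples was checked with 10 pan-endothelial markers. Their list mean was 10.08 to 10.88 over the LSEC arrays, 9.38 to 9.95 over the lung EC arrays and 6.21 to 6.40 over the thymus arrays. It was lower on Cre+ than on control arrays in both beds. In LSEC it was 10.08 to 10.33 against 10.50 to 10.88, and in lung EC 9.38 to 9.49 against 9.66 to 9.95. Of the 10 markers, 9 stood below control in LSEC, 2 of them called, and 8 in lung EC, none called. Over all probe sets tested, 48.0% and 47.9% stood below control, and 2.61% were called lower in LSEC. The part of this shift in the class II differences was not tested.

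The genes whose pattern over the 14 arrays was most like that of the class II genes were named by the root mean square difference between centred log2 values, over 13068 genes. Much of this likeness is the step between thymus and endothelium, which the arrays share. For H2-Ab1 the gene ranked first was Cd74 (0.26), followed by Stk26 (0.32), a kinase gene, Coro1a (0.33), an actin regulator gene of leukocytes, and then H2-Aa (0.34). AI467606 (0.36) and Ikzf2 (0.43), a zinc finger factor gene of T cells, followed. For Cd74 they were AI467606 (0.25), H2-Ab1 (0.26), Coro1a (0.32), Stk26 (0.40) and Kif21b (0.42), a kinesin gene.

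H2-Eb1 had no gene as close. The nearest were Slamf6 (0.63), a receptor gene of lymphocytes, Crip3 (0.70), Tube1 (0.71), which encodes epsilon tubulin, and Dgka (0.71), a diacylglycerol kinase gene of T cells, and its class II partners H2-Aa and H2-Ab1 ranked 194 and 282. Likeness to H2-Eb1 takes in its low Cre+ thymus values, on which the gene was selected. Its larger distances and the ranks of its class II partners thus restate that choice in part and are no test. Lower thymus means in the 4 nearest genes follow from how they were chosen. Slamf6 averaged 8.31 in Cre+ thymus and 9.24 in control thymus, and Dgka 10.74 in Cre+ thymus and 11.46 in control thymus.

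The labels were checked on the floxed genes. The Foxo1 probe set 1416983_s_at differed by -3.56 in LSEC, -1.29 in lung EC and -1.80 in thymus, and 3 of the 4 Foxo1 probe sets averaged lower in Cre+ samples of every tissue. Of the Foxo4 probe sets, 1456753_at differed by -2.15 in LSEC, -1.10 in lung EC and -3.24 in thymus, and 1422149_at by -0.10 in LSEC, -0.61 in lung EC and -0.07 in thymus. The 3 Foxo3 probe sets averaged lower in Cre+ LSEC (-0.58 to -0.29) and higher in Cre+ lung EC (0.01 to 0.30) and Cre+ thymus (0.02 to 0.68). The largest of these, 1434832_at in thymus, measured 9.68 and 9.53 in Cre+ thymus, against 8.89 and 8.95 in control thymus. Where these probe sets lie relative to the deleted parts was not examined here. Arrays of 1 group correlated at 0.968 to 0.987 over the probe sets and arrays of different tissues at 0.529 to 0.855. Thymocyte markers averaged 11.31 to 11.48 over the thymus arrays and 5.47 to 6.16 over the endothelial arrays.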

How the data were processed

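RNA of 14 samples was measured on 1-colour biotin-labelled arrays. The authors deposited a table of 45101 probe sets, with a value for each array; these were read as log2, from their range. Their log base, or how the signals were summarized and normalized, is not given in the sources used here. On each array, between 223 and 312 deposited log2 values stand at 0, and array medians spread over 0.282, so all arrays were quantile normalized.

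Probe sets were named from the platform annotation and RefSeq gene table (GRCm38.p6): 34945 carried 1 symbol (34741 matched by identifier), 932 several, 9160 none and 64 were array controls. Probe sets with several symbols were kept apart, and probe sets ending in x_at or s_at can match several transcripts.

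The 27022 probe sets with a mean of at least 6.87, the 40th percentile, in some tissue entered 1 linear model with 6 group means in limma 3.58.1 (R 4.3.3, lmFit and eBayes, 8 residual and 3.04 prior degrees of freedom). The Benjamini-Hochberg adjustment ran over all probe sets tested, contrast by contrast, and calls were made under 0.05. The members, lists, tests and alternatives were chosen with earlier results of these data known. Differences are Cre+ minus control, or LSEC minus lung EC, and the fit was tested on simulated data. Every passing class II probe set is described. From other lists up to 4 called members were named, or the 2 with the smallest p. Neighbours and likeness were taken for the brightest probe set of each gene. Genes named in the paragraphs on markers, and Tap1, Psmb8, Tap2 and Psmb9, were chosen after their values were seen.

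Alternatives changed the scaling (median centring, or the deposited values unscaled), the filter, eBayes options, array weights, the arrays in the fit or the probe sets per gene, added a block for replicate number, or left out each array in turn. Same-numbered Cre+ and control arrays were not taken as pairs, since the correlations of their deviations were -0.24, -0.07 and -0.17 in LSEC. They were -0.21 in lung EC and 0.07 in thymus. With 2 arrays a group the deviations mirror each other, so these lung EC and thymus values cannot decide whether arrays were paired.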

Additional observations from a re-analysis of the deposited data

Results flagged for a closer look

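In 4 passing class II probe sets every Cre+ array stood on one side of every control array in one tissue and on the other side in another. A dim H2-DMa probe set that did not pass (1459872_x_at) did so too, with -0.49 in lung EC and 0.22 in thymus. H2-Ab1 (1450648_s_at) was lower in Cre+ LSEC (-0.75) and Cre+ lung EC (-0.28) and higher in Cre+ thymus (0.44). In lung EC its higher Cre+ array and lower control array were level at 7.90. H2-Aa (1452431_s_at) was lower in Cre+ LSEC (-0.60) and Cre+ lung EC (-0.62) and higher in Cre+ thymus (0.86). H2-Ab1 (1425477_x_at) was lower in Cre+ lung EC (-0.60) and higher in Cre+ thymus (1.12). This probe set passed the filter through thymus alone, and all its lung EC arrays lay under the filter limit. H2-Aa (1435290_x_at) was lower in Cre+ lung EC (-0.30) and higher in Cre+ thymus (0.32). These differences between tissues were not tested, since the thymus values took part in the choice of the genes. Over all probe sets tested, 21.1% had their groups apart with Cre+ higher in thymus, 10.5% apart lower in LSEC and 18.8% apart lower in lung EC. The share apart on opposite sides in different tissues was not counted, so the 4 are not read as a result about class II genes.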

How the results depend on the processing

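The count of class II probe sets called in LSEC was 1 of 12. It was 0 with no filter, with array weights, with only the arrays compared in the fit, with a replicate block and with the block crossed for the lung numbers, an alternative chosen after seeing the data. It ranged from 0 to 5 when 1 array was left out. The difference of H2-Ab1 (1450648_s_at) stayed below 0 in all 24 alternatives and was called in 12 of them, with limma adjusted p from 0.0155 to 0.113, the highest with the replicate block. H2-Eb1 in LSEC was called in 2 alternatives, without either lung EC control array (0.0346), and the H2-Ab1 probe set 1425477_x_at without Cre+ LSEC replicate 2 (-1.03, 0.0247). In lung EC and between the beds' genotype effects the count was 0 in all 24. Between control LSEC and control lung EC it was 3 or 4 and was not refitted with the replicate blocks, which pair genotypes within a tissue. The sign turned for 12 of 60 differences in some alternative, none of them called and none in thymus. The count of all probe sets called ranged from 495 to 1678 in LSEC, 0 to 60 in lung EC, 6 to 329 in thymus, 0 to 262 between the genotype effects and 6180 to 13490 between the control beds. The cause of these changes was not tested. H2-Eb1 and H2-Ab1 1425477_x_at lay below the filter limit of 6.87 in every LSEC array.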
